A study of Homo sapiens with 4 samples.

Results

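Genes whose transcripts span at least 300 kb of genomic DNA were examined in RPE1 cells with and without knockdown of SAF-A. RPE1 is a human line from retinal pigment epithelium made immortal with telomerase. Transcript models on chromosomes 1 to 22 with an end minus start of 300000 bases or more were grouped to gene symbols through their RefSeq accession. In each library the FPKM (the reads of a transcript scaled to its length and to the depth of the library) of the long transcripts of a symbol was summed. There were 1451 such transcript models, of which 1431 had a symbol and fell into 702 symbols. For 22 of these the long span came from separate placements joined into 1 model or from a miRNA, and they were set aside (15 miRNAs, 5 NBPF genes, MRC1 and PARG). PARG and the NBPF genes, 6 in all, reached 1 FPKM. The remaining 680 long genes, with 1406 long transcript models, are described here, out of 25027 symbols and identifiers in the files. Expressed means at least 1 FPKM in any of the 4 libraries.

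Cells received 10 nM of an siRNA against SAF-A, the scaffold attachment factor encoded by HNRNPU, or of a negative control siRNA, and RNA was collected 24 h or 48 h later. The 4 groups, named control 24 h, SAF-A 24 h and likewise for 48 h, had 1 library each, made from total RNA depleted of ribosomal RNA and read as single-end reads of 50 bases. All 4 groups were transfected, and no untransfected cells were compared. Each comparison set 1 library against 1 other, a model pooling both times was not fitted, no p-values are given, and all statements hold for these 4 libraries alone. The deposited values imply 28083822 mapped reads in control 24 h, 30701282 in SAF-A 24 h, 28586051 in control 48 h and 1216740 in SAF-A 48 h. At 1 FPKM a transcript of 4 kb had about 107, 117, 109 and 4.62 reads in that order, so the SAF-A 48 h library carried a far larger counting error than the others. HNRNPU stood at 11.4% of control at 24 h and 10.9% at 48 h. Of 9 markers of retinal pigment epithelium, MITF and OTX2 reached 1 FPKM, and RPE65 and TTR were listed at 0 in every library. The keratins KRT7, KRT8 and KRT18 were expressed in every library, with a sum of 42.6 FPKM in SAF-A 48 h and up to 302 FPKM in the others. Of 3 leukocyte markers 1 reached 1 FPKM (CD68; sum 7.35 to 11.3 FPKM, with CD3E at 0), as did 1 of 3 neuron markers (SYT1; sum 4.49 to 6.13). The endothelial markers PECAM1 and CDH5 summed to at most 0.0580 FPKM.

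A long gene is mostly intron, and RNA polymerase II takes long to cross it. Such genes depend on processive elongation, on topoisomerases that release the twist in front of the polymerase and on factors that keep early polyadenylation sites silent. Many code for adhesion molecules, ion channels and receptors of neurons, and several coincide with common fragile sites. SAF-A binds nascent RNA and chromatin and is known for its part in large-scale chromatin structure, alternative splicing and the anchoring of noncoding RNA in the nucleus.

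Promoter sequences of 4 members are shown because the CpG content (capitals) of expressed and not expressed long genes is compared below. SND1 (a transcriptional coactivator and RNA-binding nuclease) and TRIO (a guanine nucleotide exchange factor that acts on the cytoskeleton) had the highest mean FPKM of the long genes. CNTNAP2 (a neurexin-family adhesion protein of axons) and PTPRD (a receptor tyrosine phosphatase of neurons) had the longest spans among those not expressed. Each line gives the 150 bases just upstream of the start of the longest transcript, in GRCh37 and in the direction of the gene. The stretches lie at chr7:127292052-127292201 (plus strand), chr5:14143679-14143828 (plus strand), chr7:145813303-145813452 (plus strand) and chr9:10612724-10612873 (minus strand).
SND1: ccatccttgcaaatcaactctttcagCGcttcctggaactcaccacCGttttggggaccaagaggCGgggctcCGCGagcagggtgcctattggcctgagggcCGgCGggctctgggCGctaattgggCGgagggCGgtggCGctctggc
TRIO: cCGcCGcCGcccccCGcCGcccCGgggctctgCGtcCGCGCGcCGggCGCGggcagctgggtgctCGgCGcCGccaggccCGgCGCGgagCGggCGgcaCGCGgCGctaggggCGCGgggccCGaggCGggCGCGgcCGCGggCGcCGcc
CNTNAP2: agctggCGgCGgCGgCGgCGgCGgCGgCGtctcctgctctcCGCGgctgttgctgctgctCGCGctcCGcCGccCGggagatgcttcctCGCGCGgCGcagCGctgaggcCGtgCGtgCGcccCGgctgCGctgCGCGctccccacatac
PTPRD: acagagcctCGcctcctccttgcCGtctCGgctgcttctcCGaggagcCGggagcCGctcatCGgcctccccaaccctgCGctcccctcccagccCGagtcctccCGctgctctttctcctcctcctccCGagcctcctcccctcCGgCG
The stretches hold 11, 34, 27 and 13 CpG dinucleotides for SND1, TRIO, CNTNAP2 and PTPRD. In these 4 genes CpG thus stood upstream whether or not the gene was expressed. Over all members CpG-rich promoters were more common among the expressed, as given below.

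Fewer of the long genes were expressed than of genes at large. Of the 680 long genes 262 were expressed (38.5%), against 53.1% of the 20783 genes on the same chromosomes whose spliced transcript had 300 nt or more. The members are counted by their long transcripts and the 20783 genes by all transcripts, and with all transcripts counted 285 of the 680 were expressed. Of the 418 not expressed, 61 were listed at 0 in all 4 libraries. At or below 0.1 FPKM in every library were 299 of the 680. Among the expressed genes 190 reached 1 FPKM in all 4 libraries, and 53 averaged 10 FPKM or more. All but 1 of the expressed members were protein-coding (261 of 645 protein-coding members). Of 34 long noncoding RNA members 1 was expressed, the PRH1-PRR4 readthrough transcript, at 1.32, 1.05, 0.968 and 0.596 FPKM in the same order of libraries, which holds for all sets of 4 values below.

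The share of expressed genes was lower above 300 kb than in genes of 10 to 300 kb, and genes under 10 kb were also low. With all transcripts counted it was 40.1% for genes under 10 kb, 55.9% for 10 to 30 kb, 63.2% for 30 to 100 kb, 62.1% for 100 to 300 kb, 45.8% for 300 to 500 kb and 36.9% for 500 kb or more. By long transcripts alone, 180 of 422 members of 300 to 500 kb were expressed (42.7%), 76 of 207 of 500 kb to 1 Mb (36.7%) and 6 of 51 of 1 Mb or more (11.8%). Expressed members had a median span of 419 kb and those not expressed 455 kb. The median longest intron was 139 kb against 176 kb, and the median first intron 56.7 kb against 80.7 kb. Spliced length was similar, with medians of 5560 nt and 5187 nt, and the median number of exons was 19 and 16. The interquartile ranges of all of these features overlapped widely between the expressed and not expressed members. Intron made up a median of 98.7% of the span of expressed members.

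**Figure D1:**
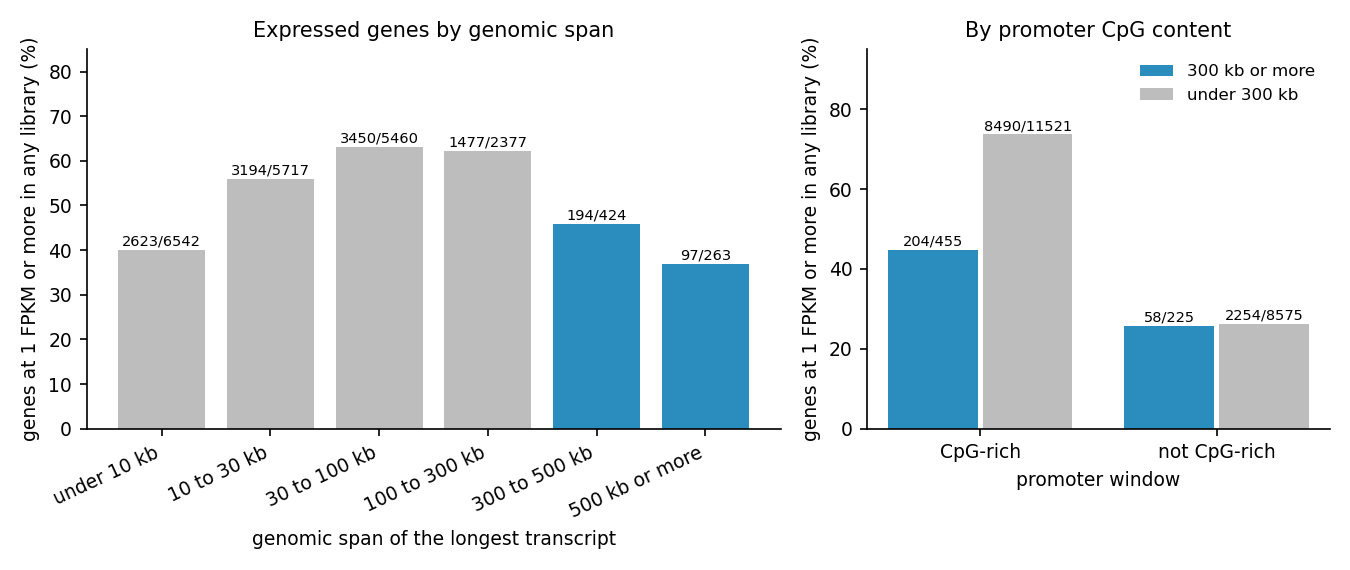
Percent of genes at 1 FPKM or more in any of the 4 libraries, by genomic span of the longest transcript (left; FPKM of all transcripts, 7 symbols with joined placements included) and by CpG class of the promoter window (right; members by their long transcripts). Bars start at 0 and the numbers above them are expressed and all genes. The share was 63.2% at 30 to 100 kb and 36.9% at 500 kb or more, and among CpG-rich promoters it was 44.8% for long genes against 73.7% for genes under 300 kb.

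CpG-rich promoters were common among long genes whether or not they were expressed. The window ran from 250 bases before to 50 bases after the transcript start and was called CpG-rich at a GC content of at least 50% and an observed to expected CpG ratio of at least 0.6. It was CpG-rich in 77.9% of expressed members and in 60.0% of members not expressed, against 79.0% and 32.4% of expressed and not expressed genes under 300 kb. Of 455 long genes with a CpG-rich window 204 were expressed (44.8%), whereas 73.7% of shorter genes with such a window were. Without a CpG-rich window 58 of 225 long genes were expressed (25.8%), close to the 26.3% of shorter genes. The letters TATAAA, sought on both strands, lay in the window of 4.58% of expressed and 9.57% of not expressed members. Among genes under 300 kb it was 6.43% of expressed and 15.0% of not expressed genes, and among all genes 10.3%. TRIO and SND1 held 59 and 30 CpG dinucleotides in the whole window, and CNTNAP2 and PTPRD 38 each.

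The 10 long genes with the highest mean FPKM included regulators of the cytoskeleton (TRIO, DST and ARHGEF28), a glycosyltransferase (EXT1) and a secreted protease (ADAMTS12). The mean includes SAF-A 48 h, so a high value there helped a gene onto this list. SND1 (chromosome 7, 127292202 to 127732659) was at 76.9, 69.6, 93.5 and 182 FPKM. TRIO (chromosome 5, 14143829 to 14509458) was at 44.8, 44.3, 46.9 and 103 FPKM. EXT1, a glycosyltransferase that extends heparan sulfate, was at 53.1, 49.7, 49.7 and 82.0 FPKM. In each of these genes SAF-A 48 h was highest, and the other 3 values of TRIO and EXT1 lay close together. ADK, adenosine kinase, was at 43.7, 41.5, 42.9 and 80.1 FPKM. ITFG1 was at 27.2, 26.8, 27.1 and 92.1 FPKM. DST, the giant linker protein dystonin that ties cytoskeletal filaments to one another and to hemidesmosomes, was at 25.2, 26.5, 28.8 and 85.4 FPKM. These also peaked in the SAF-A 48 h library, and ITFG1 differed by little among the other 3. ASCC3, a helicase, was at 33.4, 29.9, 35.6 and 61.2 FPKM. ADAMTS12, a secreted metalloprotease, was at 23.8, 24.1, 34.3 and 59.0 FPKM. CAMK2D, a calcium- and calmodulin-dependent kinase, was at 22.8, 20.2, 19.6 and 76.9 FPKM. ARHGEF28, another guanine nucleotide exchange factor, at 28.7, 22.7, 31.9 and 55.4 FPKM completes the 10 members of highest mean. In all 10 the SAF-A 48 h value was the highest of the 4, and its deposited 95% interval lay above those of the other 3 libraries. That interval reflects how well abundance was estimated in 1 library and leaves out the variation between cultures.

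**Figure D2:**
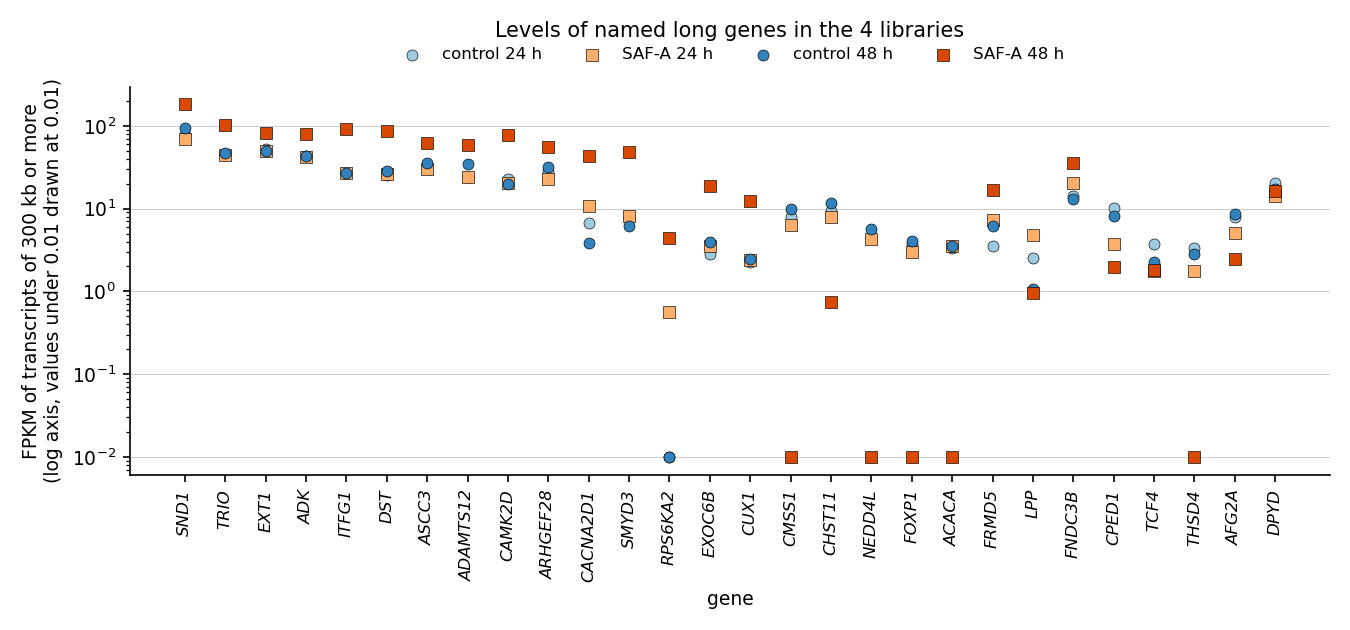
FPKM of long transcripts (vertical, log axis; values under 0.01 are drawn at 0.01) for the 10 members of highest mean and the members with the largest rise or fall under SAF-A siRNA (horizontal). Each point is 1 library, circles for control and squares for SAF-A siRNA, with lighter colours at 24 h. SND1 to ARHGEF28 sit highest in SAF-A 48 h, and CMSS1, NEDD4L, FOXP1, ACACA and THSD4 are drawn at the floor in that library.

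Very long expressed genes were few and mostly low. CDH13 (chromosome 16, 1170 kb), a cadherin anchored to the membrane by a lipid, was the highest of the 5 longest, at 8.76, 8.21, 8.20 and 33.1 FPKM. ROBO1 (chromosome 3, 1171 kb), a receptor for Slit guidance proteins, was at 5.36, 7.29, 5.53 and 5.09 FPKM. CNTN5, a contactin of 1338 kb and the longest expressed member, was at 0.664, 0.792, 1.16 and 1.54 FPKM. CDH13 was highest in SAF-A 48 h, and the 4 values of ROBO1 lay closer together. GPC6, a glypican proteoglycan of 1181 kb, was at 1.02, 1.01, 0.659 and 0.357 FPKM. SPAG16, of 1126 kb, was at 1.28, 0.736 and 0.740 FPKM in the first 3 libraries and under 1 estimated read in SAF-A 48 h. At the other end, CNTNAP2 (2305 kb), PTPRD (2298 kb), the synaptic scaffold gene DLG2 (2172 kb), CSMD1 (2059 kb) and MACROD2 (2058 kb) were the longest members not expressed. None of these 5 exceeded 0.0312 FPKM, the value of DLG2 in control 48 h, and all 5 were listed at 0 in SAF-A 48 h. At the 300 kb threshold CACNA1A, NOS1AP and MGMT lay just inside and had at most 0.0862 FPKM. NUBPL, ST18 and JMJD1C lay just outside. NUBPL was at 2.16, 4.22, 0.774 and 3.74 FPKM, ST18 at most at 0.00571 FPKM, and JMJD1C was at 13.3, 13.6, 15.8 and 25.9 FPKM.

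Members were grouped by what their proteins do, in lists that name part of the 680. These lists were chosen with earlier results of these data known. Over all members 38.5% were expressed. Of 42 neural adhesion and axon guidance genes 13 were expressed (31.0%), and of 34 ion channels and neurotransmitter receptors 8 (23.5%). Extracellular matrix and proteoglycan genes had 6 of 20 expressed (30%), receptor tyrosine kinases and phosphatases 6 of 16 (37.5%) and RNA-binding proteins 4 of 11 (36.4%). Genes of common fragile sites had 8 of 27 expressed (29.6%). FHIT, the fragile histidine triad gene, was listed at 0 in all 4 libraries, and WWOX, an oxidoreductase gene at another fragile site, reached at most 0.142 FPKM. Kinases, phosphodiesterases and lipid signalling genes had 10 of 27 expressed (37%) and transcription factors and chromatin regulators 15 of 36 (41.7%). Above the share of all genes (53.1%) stood cytoskeleton, polarity and adhesion plaque with 23 of 37 (62.2%), and trafficking, ubiquitin and organelle proteins with 20 of 24 (83.3%). These shares are counts in these libraries without a test, and they ran from the channel and receptor genes up to the trafficking genes.

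At 24 h long genes moved little after SAF-A knockdown. Changes are differences in log2(FPKM + 1), a scale that understates the change of low genes, and at least 2-fold means a difference of at least 1 on it. They were taken over the 241 members that averaged 1 FPKM or more in the 4 libraries, and over 10423 genes that met the same filter. A member could pass through the group in which it was high, so the 241 are not all members. At 24 h no member was higher by 2-fold or more and 1 was lower by that much, against 0.288% and 0.134% of all tested genes. The median change was -0.07, and that of all tested genes was also -0.07. In bulk RNA a lower share of cells that express a gene and less RNA per cell cannot be told apart.

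The 1 member past 2-fold at 24 h was CPED1 (cadherin-like and PC-esterase domain containing 1; chromosome 7, 120628751 to 120937498, plus strand). Its long transcript was at 10.2 FPKM in control 24 h (deposited 95% interval 9.44 to 10.9), 3.76 in SAF-A 24 h (3.37 to 4.15), 8.11 in control 48 h (7.50 to 8.72) and 1.98 in SAF-A 48 h (0.582 to 3.38). Both SAF-A libraries lay below both control libraries, with differences of -1.23 at 24 h and -1.61 at 48 h, the last on 12.3 estimated reads in SAF-A 48 h. It was the only member at least 2-fold changed in the same direction at both times. With all transcripts of CPED1 summed the levels were 14.8, 8.11, 11.4 and 11.6 FPKM, which gave -0.79 at 24 h and nearly equal levels at 48 h.

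The next most negative differences at 24 h were under 2-fold. The long transcripts of TCF4, a basic helix-loop-helix transcription factor, were at 3.78, 1.79, 2.25 and 1.83 FPKM, but its transcripts of all lengths summed to 4.10, 4.14, 4.22 and 4.70. THSD4, a matrix protein with thrombospondin repeats, was at 3.39, 1.76 and 2.81 FPKM and under 1 estimated read in SAF-A 48 h. AFG2A, a AAA ATPase, was at 7.98, 5.13, 8.57 and 2.49 FPKM. THSD4 and AFG2A were lower in each SAF-A library than in both controls, whereas the difference of TCF4 was 0.01 once all its transcripts were summed. DPYD, which starts the breakdown of pyrimidines, was at 20.7, 14.1, 17.2 and 16.5 FPKM.

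The most positive differences at 24 h were also under 2-fold. FRMD5, a FERM domain protein of cell junctions, was at 3.52, 7.22, 6.10 and 16.8 FPKM (0.86 at 24 h). LPP, a LIM protein of focal adhesions, was at 2.55, 4.74, 1.07 and 0.967 FPKM (0.69). CACNA2D1, an auxiliary subunit of voltage-gated calcium channels, was at 6.76, 10.6, 3.86 and 43.6 FPKM (0.58). FRMD5 and CACNA2D1 were higher in each SAF-A library than in the control of the same time, and LPP only at 24 h. FNDC3B, a fibronectin type III domain protein, was at 14.0, 20.2, 13.1 and 35.2 FPKM (0.49), higher under SAF-A siRNA at both times. The long transcript of RPS6KA2, a ribosomal S6 kinase, was under 0.001 FPKM in both control libraries, 0.559 in SAF-A 24 h and 4.45 in SAF-A 48 h. Its transcripts of all lengths went the other way, at 13.9, 11.9, 15.2 and 4.46 FPKM, with differences of -0.21 at 24 h and -1.57 at 48 h.

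At 48 h the long genes, like all tested genes, spread widely in both directions. Of the 241 members 33 were higher by 2-fold or more (13.7%) and 30 lower by that much (12.4%), against 14.2% and 17.9% of all tested genes. The median change of members was 0.08 and that of all tested genes -0.10. The SD over members was 0.98 at 48 h and 0.23 at 24 h, against 1.03 and 0.245 over all tested genes. All 33 higher members had 10 or more estimated reads in SAF-A 48 h, and 30 of them were also higher with all transcripts of the gene summed. Of the 30 lower members 23 had fewer than 10 estimated reads in SAF-A 48 h, among them 3 listed at 0 there (NLGN1, SLC25A26 and ZNF407). Estimated reads are computed from the FPKM of the same library, so higher members have more of them there and lower members fewer by construction. These counts of reads therefore do not weigh the rises against the falls. Of the 30, 18 were also lower with all transcripts of the symbol summed. GULP1 is 1 of these 18, but its sum leaves out 2 long accessions without a symbol at its locus, which went from 0.113 to 13.4 and from 1.07 to 0 FPKM between control 48 h and SAF-A 48 h. Depth thus moved with this comparison: the median estimated reads per member were 598, 586, 598 and 25 in the 4 libraries, and its part in the result was not tested. Among the 201 members for which the other 3 libraries predicted at least 10 reads at that depth, 26 were higher and 28 lower. The predicted reads do not use the SAF-A 48 h value, and without this filter the 241 members had 33 higher and 30 lower.

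**Figure D3:**
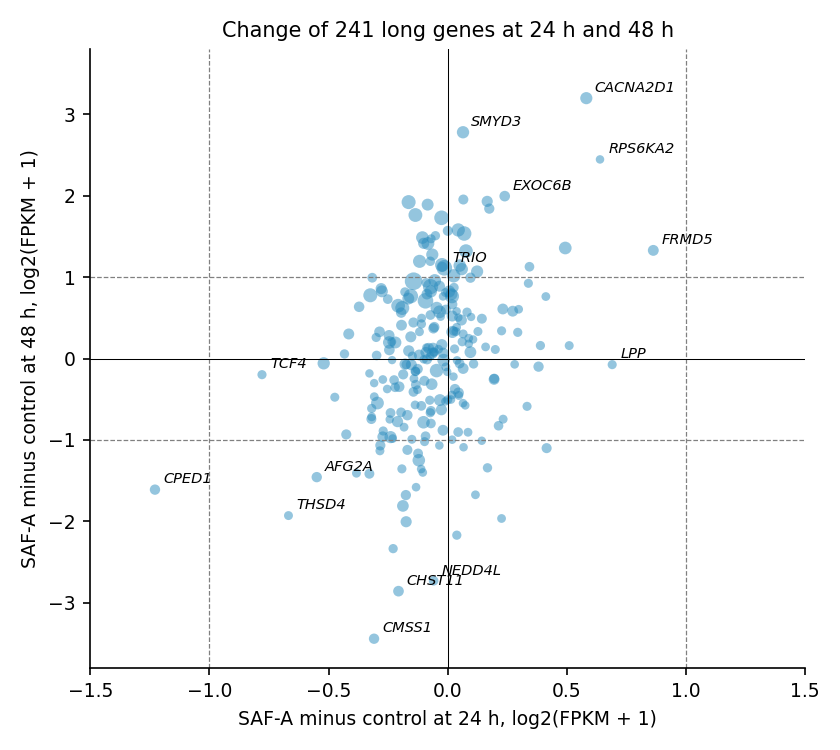
Difference in log2(FPKM + 1) between SAF-A and control siRNA at 24 h (horizontal) and 48 h (vertical) for the 241 members that averaged 1 FPKM or more. Each point is a gene, its area grows with the mean FPKM, and dashed lines mark 2-fold. Only CPED1 lies past 2-fold at 24 h, whereas 33 members lie above and 30 below the 2-fold lines at 48 h.

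CACNA2D1 had the largest rise at 48 h. Its level of 43.6 FPKM in SAF-A 48 h (37.2 to 50.0) stood against 3.86 in control 48 h (3.47 to 4.24), a difference of 3.20. SMYD3, a lysine methyltransferase whose long transcripts span 758 kb of chromosome 1, was at 7.77, 8.17, 6.08 and 47.7 FPKM (2.78). EXOC6B, a subunit of the exocyst that tethers secretory vesicles, was at 2.80, 3.49, 3.91 and 18.6 FPKM (2.0). CUX1, a homeodomain transcription factor, was at 2.26, 2.41, 2.43 and 12.3 FPKM (1.95). In SMYD3, EXOC6B and CUX1 the first 3 libraries lay close together and SAF-A 48 h stood apart, on 73.2, 54.1 and 48.1 estimated reads. RPS6KA2 was also among the 5 largest rises by its long transcript (2.45), while its summed transcripts fell, as given above.

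The members with the largest falls at 48 h had few estimated reads left in SAF-A 48 h, which follows from their low FPKM there. CHST11, a chondroitin sulfotransferase with no shorter transcript in the files, was at 9.33, 7.96, 11.6 and 0.740 FPKM (-2.86), the last value from 5 estimated reads. The long transcript of CMSS1 was at 8.01, 6.28 and 9.88 FPKM and then under 1 estimated read (-3.44). With all CMSS1 transcripts the levels were 36.3, 35.2, 33.7 and 20.4 FPKM (-0.69). The long transcripts of FOXP1, a forkhead transcription factor, were at 3.70, 3.01 and 4.05 FPKM and then under 1 estimated read (-2.34). All FOXP1 transcripts together were at 11.3, 10.7, 8.33 and 3.99 FPKM (-0.90). CMSS1 and FOXP1 were thus lower on both measures but under 2-fold for the whole gene. NEDD4L, a ubiquitin ligase, had long transcripts at 4.49, 4.27 and 5.64 FPKM and under 1 estimated read in SAF-A 48 h (-2.73), while all its transcripts rose from 16.9 to 52.9 FPKM at 48 h (1.59). ACACA, the acetyl-CoA carboxylase of fatty acid synthesis, had long transcripts at 3.38, 3.50 and 3.50 FPKM and under 1 estimated read in SAF-A 48 h (-2.17), while all its transcripts were at 7.93 and 10.3 FPKM at 48 h (0.34). For NEDD4L and ACACA the direction therefore depended on whether shorter transcripts were included.

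Several falls at 48 h left more estimated reads in SAF-A 48 h. DIAPH3, a formin that nucleates actin filaments, was at 24.1, 22.1, 22.7 and 8.97 FPKM on 37.7 estimated reads in SAF-A 48 h (-1.25). PRKCA, protein kinase C alpha, was at 6.37, 5.56, 5.56 and 2.01 FPKM on 21.0 reads (-1.12). AFG2A fell by 1.46 on 24.0 reads. DIAPH3, PRKCA and AFG2A were each lowest in SAF-A 48 h, and their deposited intervals in that library lay below those of control 48 h. The long transcripts of PDE1C, a cyclic nucleotide phosphodiesterase, were at 17.0, 14.8, 15.9 and 3.83 FPKM on 12.8 reads (-1.81). With all transcripts summed DIAPH3 was at 23.5 and 11.9 FPKM and PDE1C at 49.2 and 24.9 FPKM in control 48 h and SAF-A 48 h, both lower but short of 2-fold on the log2(FPKM + 1) scale. AFG2A and PRKCA have no shorter transcript in the files used here.

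Counts of listed members past 2-fold at 48 h are small and are read beside the background of 14.2% higher and 17.9% lower, without a test between lists. Cytoskeleton, polarity and adhesion genes had 5 of 22 higher (TRIO, DST, MACF1, PARD3 and DOCK1), 2 lower (DIAPH3 and TIAM1) and a median of 0.45. MACF1, which links microtubules to actin, was at 20.2, 19.8, 28.4 and 64.3 FPKM. PARD3, a scaffold of cell polarity, was at 15.4, 14.0, 22.4 and 78.6 FPKM. DOCK1, an activator of Rac, was at 15.1, 14.2, 15.7 and 43.4 FPKM. Each of these rose past 2-fold in SAF-A 48 h, and none did at 24 h. TIAM1, another activator of Rac, was at 2.17, 1.43, 3.22 and 0.588 FPKM, the last from 5 estimated reads. Trafficking, ubiquitin and organelle genes had 3 of 20 higher (COG5, UBE2E2 and EXOC6B), 2 lower (NEDD4L and FBXL17) and a median of 0.50. Transcription factors and chromatin regulators had 3 of 12 higher (SMYD3, CUX1 and HDAC9), 1 lower (FOXP1) and a median of 0.56.

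Members of the neural, receptor and signalling lists went both ways at 48 h. Of 13 neural adhesion and guidance genes 1 was higher (CDH13) and 2 lower (NEGR1 and NLGN1), with a median of -0.26. NLGN1, a synaptic adhesion protein, was at 1.97, 2.11 and 1.13 FPKM and listed at 0 in SAF-A 48 h. CADM1, an immunoglobulin-type adhesion molecule, was at 9.11, 7.35, 14.6 and 26.6 FPKM (0.83, under 2-fold). Of 6 ion channels and receptors KCNMA1 and CACNA2D1 were higher and KCNQ5 was lower, the last on 4 estimated reads. KCNMA1, the large-conductance calcium-activated potassium channel, was at 12.1, 13.2, 12.4 and 27.2 FPKM by long transcripts (1.07). With all KCNMA1 transcripts summed it was at 28.9 FPKM in control 48 h and 31.3 in SAF-A 48 h, far short of 2-fold. Among 6 receptor kinases and phosphatases PTPRK, a receptor phosphatase of cell contacts, was higher, at 16.2, 16.8, 17.6 and 54.6 FPKM (1.58), and none was lower. Of 5 matrix genes FNDC3B was higher and THSD4 lower. Among the kinases and phosphodiesterases PDE1C and PRKCA were lower, and CAMK2D was among those higher. None of the 4 RNA-binding protein genes (RBMS3, MSI2, ATXN1 and STAU2) passed 2-fold. Of 8 fragile site genes CDH13 was higher and DIAPH3 lower, with a median of -0.07. At 24 h no member of these lists was past 2-fold.

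The median change and the share of lower genes at 48 h varied with span across all genes, and the share of higher genes varied little. The median difference was -0.37 for genes under 10 kb, -0.12 for 10 to 30 kb, -0.04 for 30 to 100 kb, 0.07 for 100 to 300 kb, 0.07 for 300 to 500 kb and 0.08 for 500 kb or more. The share at least 2-fold lower was 26.2% under 10 kb, 8.70% at 300 to 500 kb and 11.2% at 500 kb or more. The share at least 2-fold higher lay between 12.4% and 15.2% in all 6 classes. Genes of 100 to 300 kb, with 10.1% lower, were like the long genes, so the pattern was not particular to spans above 300 kb. Within the members the medians were 0.07 for 300 to 500 kb, 0.07 for 500 kb to 1 Mb and 0.16 for the 4 tested members of 1 Mb or more. Spliced length and level also varied with span and were tabulated. Among transcripts of 6 kb or more the median at 48 h was 0.05 for 106 members and -0.23 for 1224 genes under 300 kb. Among those of 2 to 4 kb it was 0.14 for 52 members and -0.13 for 4095 shorter genes. In each class of spliced length above 2 kb the median was thus positive for members and negative for shorter genes, and under 2 kb it was 0.33 and 0.12. Shorter genes here and in the level classes below pool all spans under 300 kb, with all transcripts counted, and members are counted by long transcripts. Genes of 100 to 300 kb, which were like the members, are not split in these ways, so these contrasts are not particular to long genes. In members with a mean of 20 FPKM or more 13 of 25 were higher and none lower, with a median of 1.02, against 23.4% higher, 14.4% lower and a median of 0.25 for shorter genes of that level. For members of 5 to 20 FPKM 12 of 83 were higher (14.5%) and 10 lower (12.0%), with a median of 0.13, against 11.7%, 18.5% and -0.14 for shorter genes. For members of 1 to 5 FPKM 8 of 133 were higher (6.02%) and 20 lower (15.0%), with a median of -0.16, against 7.88%, 21.6% and -0.37. The SAF-A 48 h value is part of the mean that defines these level classes, so high values there raise a gene's class. At 24 h the medians of all span classes lay between -0.08 and -0.04.

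**Figure D4:**
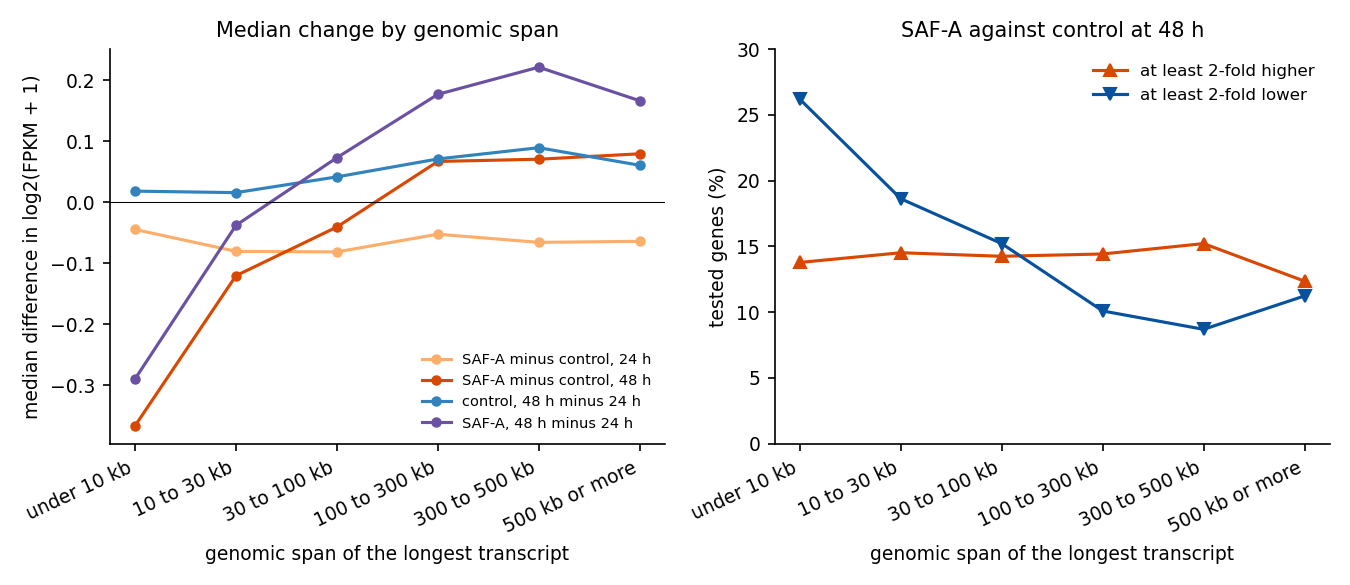
Median difference in log2(FPKM + 1) for 4 comparisons (left) and percent of tested genes at least 2-fold higher or lower in SAF-A 48 h than in control 48 h (right), by genomic span of the longest transcript. Each point is a class of genes that averaged 1 FPKM or more, with all transcripts summed. At 48 h the share of lower genes went from 26.2% under 10 kb to 11.2% at 500 kb or more, and the 24 h line stayed between -0.08 and -0.04.

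Long genes changed little with time in the control libraries. Between 24 h and 48 h of control siRNA 2 members were higher by 2-fold or more and 2 lower (0.830% each), against 0.432% and 0.374% of all tested genes, and the median change was 0.09 against 0.03. NEGR1, a neuronal adhesion protein anchored to the membrane, fell from 7.40 to 2.11 FPKM (-1.43), and GULP1, an adaptor of engulfment, from 4.62 to 1.56 (-1.13). CLSTN2, a calsyntenin, rose from 1.90 to 5.95 FPKM (1.26), and ABTB3 from 0.918 to 3.55 (1.25). These 4 were the members past 2-fold, and NEGR1 and GULP1 were also at 10.2 and 5.32 FPKM in SAF-A 24 h and at 0.451 and 0.0106 in SAF-A 48 h, on 3 and under 1 estimated reads. The next in size were LPP (-0.78) and the long transcripts of HDAC9, a histone deacetylase (0.72, from 0.539 to 1.53 FPKM). With all HDAC9 transcripts summed the difference was 0.00074, so the whole gene was level between the control libraries. With SAF-A siRNA 48 members were higher and 34 lower at 48 h than at 24 h, against 15.5% higher and 15.5% lower of all tested genes, and the median was 0.19 against -0.004. This comparison and that of SAF-A with control at 48 h share the SAF-A 48 h library, as the 24 h comparison and the control time course share control 24 h. In the 3 deep libraries 179 of the 241 members stayed within 1.5-fold of one another (74.3%), against 81.7% of all tested genes. With SAF-A 48 h added it was 44 (18.3%) against 25.4%.

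Of the expressed members 9 reached 1 FPKM in SAF-A 48 h alone: CAMK1D, CEP112, FOXN3, FUT8, NBEA, RERE, RPS6KA2, SUPT3H and XKR6. The share of all genes that did so is not given here, so this count is not read as a trait of long genes. NBEA, a regulator of membrane traffic, was at 0.629, 0.680, 0.981 and 1.81 FPKM, the last on 24.0 estimated reads. RERE, a nuclear receptor corepressor, was at 0.658, 0.775, 0.884 and 1.68 FPKM. Both lay under the threshold in the deep libraries. The long transcript of FOXN3, a forkhead repressor, was under 0.001 FPKM in both controls, 0.451 in SAF-A 24 h and 1.32 in SAF-A 48 h on 12.3 reads. Without the SAF-A 48 h library these 9 would not count as expressed by their named long transcripts. Other transcripts of some of these genes were expressed in the deep libraries. All transcripts of RPS6KA2 together stood between 11.9 and 15.2 FPKM there, as given above. A long accession without a symbol within FUT8 was at 22.2, 22.4, 20.4 and 24.9 FPKM, and one within CEP112 at 0.322, 1.22, 0.670 and 0.00203 FPKM.

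Whether the long or the shorter transcripts of a gene carried its signal was compared in 186 members that have both kinds. With at least 5 FPKM over all transcripts in both libraries, the share of FPKM on long transcripts moved by 30 percentage points or more in 0 of 42 genes at 24 h and 0 of 43 between the control libraries. At 48 h it moved in 6 of 41: KCNMA1 was higher, and SLC25A26, CPED1, ACACA, ADAMTSL1 and NEDD4L were lower. The long share of KCNMA1 was 49.8%, 58.9%, 42.9% and 86.7%, and that of CPED1 68.9%, 46.4%, 71.0% and 17.1%. ADAMTSL1, a matrix protein, had a long share of 69.8%, 64.6%, 56.2% and 16.5%, while all its transcripts together were at 22.1, 25.6, 19.3 and 69.8 FPKM. CPED1 had a lower long share in each SAF-A library than in both controls, whereas the shift of ADAMTSL1 was in SAF-A 48 h alone. SLC25A26, a mitochondrial carrier of S-adenosylmethionine, had long transcripts at 1.74, 2.21, 2.90 and 0 FPKM and all transcripts at 4.80, 4.90, 5.38 and 9.45. How FPKM is divided among overlapping transcripts of a gene is an estimate, and at 4.62 reads per FPKM for a transcript of 4 kb few reads entered it in SAF-A 48 h.

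**Figure D5:**
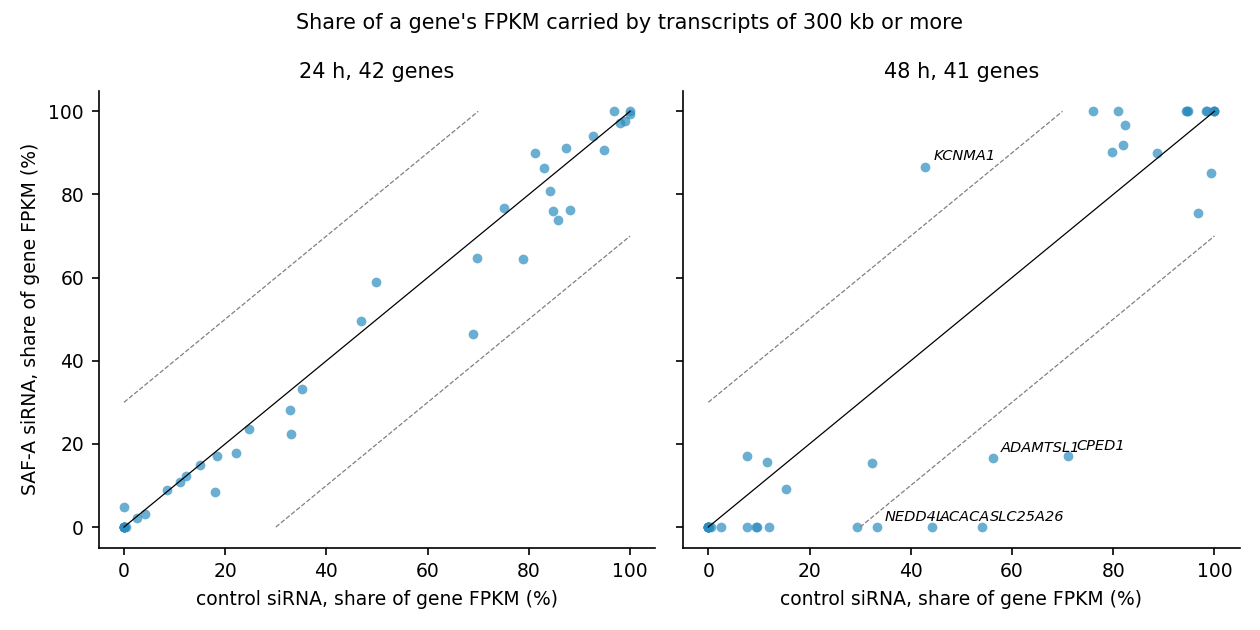
Percent of a gene's FPKM carried by transcripts of 300 kb or more with control siRNA (horizontal) and SAF-A siRNA (vertical) at 24 h and 48 h, for members with both kinds of transcript and at least 5 FPKM in both libraries. Each point is a gene, the solid line marks equal shares and dashed lines a difference of 30 points. No gene lay outside the dashed lines at 24 h, and KCNMA1 above and 5 genes below at 48 h.

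Genes for factors of transcription elongation, pausing and termination, for topoisomerases and for related RNA-binding proteins were read beside the members. Of these 39 genes 37 averaged 1 FPKM or more. None was past 2-fold at 24 h, with a median of -0.11. At 48 h CDC73, NELFE and XRN2 were higher, ELL2, PCF11, SFPQ, TARDBP, TCEA1 and TOP2A lower, and the median was 0.13. These 3 and 6 of 37 stand beside 14.2% higher, 17.9% lower and a median of -0.10 over all tested genes. SFPQ, an RNA-binding protein needed for the transcription of long neuronal genes, was at 174, 115, 173 and 68.5 FPKM, lower in each SAF-A library than in both controls. TOP1, the topoisomerase I gene, was at 9.26, 8.55, 11.5 and 6.13 FPKM, under 2-fold at both times. TOP2B was at 32.0, 29.2, 33.2 and 51.5 FPKM, also under 2-fold. The levels of these genes and of the long genes were not tested against each other.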

How the data were processed

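The 4 groups of RPE1 cells gave 1 library each, grouped by siRNA and time from the labels. The values are FPKM computed and deposited by the authors in transcript files, with 95% interval bounds and a coverage per transcript, per the file headers. The submitters' processing notes name TopHat2 2.0.10, Bowtie2 2.1.0, Cufflinks 2.2.1, Cuffdiff and hg19, without the role of each. Strand use and the handling of reads that map to several places are not given in the sources used here, so overlapping or antisense genes cannot be told apart.

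Each accession was joined to a symbol through RefSeq (97.1% of transcript rows matched), and FPKM and bounds were summed over the transcripts of at least 300 kb of a symbol; summed bounds are wider than an interval of the sum. Symbols were set aside as joined placements when they were miRNAs or when no single gene of GENCODE release 44 on GRCh37 covered at least 50% of the span on the same strand. Coverage divided by FPKM gave the mapped reads, and estimated reads used a fragment length of 200 nt with an SD of 80 nt and reads of 50 nt. Reads without molecular identifiers are not independent molecules, and the intervals reflect counting error alone.

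The change of a gene is its difference in log2(FPKM + 1), taken where the 4 libraries averaged 1 FPKM or more, and a difference of 2-fold or more counts as changed. With 1 library per group no test was made. Named genes are the 10 members of highest mean, the 5 and 5 with the largest difference at each time and 3 and 3 with time in the controls with intervals that do not overlap, members changed at both times, the 5 longest expressed and not expressed, those nearest 300 kb, examples from the lists and members whose long share moved most. Other genes named (FHIT, WWOX, the members given by number of reads and those expressed in SAF-A 48 h alone) were chosen after their values were seen. The members and lists were chosen with earlier results of these data known. Alternatives were other FPKM and span thresholds, pseudocounts and filters, rescaling to TPM, centring, all transcripts of a symbol and intervals that do not overlap; keeping accessions without a symbol and a minimum of 10 expected reads were added after seeing the data. The counting of changes was checked by putting known changes into the real control 24 h values. That check held no noise, shallow library or division among transcripts, so it does not bear on those. Promoters were read from GRCh37. Python 3.11.15, pandas 2.3.3 and numpy 2.4.6 were used. For 1 member of the lists the result is not reported here.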

Additional observations from a re-analysis of the deposited data

Results flagged for a closer look

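The median difference of the 241 long genes between SAF-A and control siRNA had opposite signs at the 2 times, -0.070 at 24 h and 0.076 at 48 h in log2(FPKM + 1). The medians of all tested genes were -0.07 and -0.10. The difference between the times was not tested, since each group had 1 library.

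Signal also appeared in long transcripts that the comparisons did not use. Of 20 accessions without a symbol 7 reached 1 FPKM. NR_038170, which lies within FUT8 on chromosome 14, was at 22.2, 22.4, 20.4 and 24.9 FPKM, nearly level over the 4 libraries. NR_045562, at the GULP1 locus on chromosome 2, was at 0.319, 2.66, 0.113 and 13.4 FPKM, higher in each SAF-A library than in both controls, while the named GULP1 transcripts were at 4.62, 5.32, 1.56 and 0.0106 FPKM. NM_001134380, at the TBC1D5 locus on chromosome 3, was at 5.35, 5.74, 2.83 and 9.13 FPKM. On the X chromosome, which the rule leaves out, 7 of 27 long genes were expressed. The highest was POLA1, the catalytic subunit of DNA polymerase alpha, at 11.4, 9.21, 10.6 and 2.67 FPKM.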

How the results depend on the processing

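No paired analysis was possible because the groups compared share fewer than 2 replicate numbers, with 1 library each. A fit with time as a block over all 4 libraries was not run. Of 172 alternatives for the reported counts and medians, 120 stayed within 1.5 times the count or within the 95% bounds of the median, and 52 did not. In what follows a pair of counts is higher and lower, for SAF-A against control at 24 h unless another comparison is named.

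A span of 500 kb left 258 members, 75 of them expressed. It gave 9 and 11 changed at 48 h, 1 and 1 in the control time course, 15 and 13 in the SAF-A time course, 0 lower at 24 h and a 24 h median of -0.034. A span of 250 kb gave 0 lower at 24 h, 51 higher at 48 h and 73 higher in the SAF-A time course. A pseudocount of 0.1 gave 2 and 2 at 24 h, 48 lower at 48 h and 4 and 4 in the control time course. A 1.5-fold threshold gave 3 and 3 at 24 h, 66 and 58 at 48 h, 6 and 6 in the control and 80 and 52 in the SAF-A time course. With all transcripts summed, 24 h had 1 higher and 0 lower.

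A mean of at least 5 FPKM gave 10 lower and a median of 0.40 at 48 h, 1 and 1 in the control time course, and 10 lower and a median of 0.61 in the SAF-A time course. Without a filter on FPKM most members are near 0, and the medians were -1.4e-08 at 24 h, -7.3e-06 at 48 h, 0 in the control and -0.0070 in the SAF-A time course. The sign at 48 h and in the SAF-A time course thus reversed. Rescaling to TPM moved the medians to -0.22 at 24 h, 0.15 in the control and 0.37 in the SAF-A time course, and centring moved the 24 h median to -0.0012. Members whose deposited intervals do not overlap had medians of -0.24, 0.62, 0.22 and 0.78 in the 4 comparisons (24 h, 48 h, control time, SAF-A time).

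For the share on long transcripts, a minimum of 20 FPKM left 0 lower at 48 h and 1 lower in the SAF-A time course. A span of 500 kb gave 2 higher and 0 lower at 48 h, and 1 higher and 0 lower in the SAF-A time course. Of 104 alternatives for named members 91 kept direction and side of 2-fold, 3 fell under 2-fold, 5 passed it and 5 reversed. All 5 reversals came from summing all transcripts: TCF4 to 0.011 and RPS6KA2 to -0.21 at 24 h, and NEDD4L to 1.59, ACACA to 0.34 and RPS6KA2 to -1.57 at 48 h. The cause of these shifts was not tested.

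With 1 library per group the variation between cultures is unknown, and 63 of the 241 members had fewer than 10 estimated reads in SAF-A 48 h.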
